A study of Equus caballus with 31 samples.

Results

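Mitochondrial ribosomal proteins are the proteins of the ribosome that works inside mitochondria. Their genes were taken as every symbol that starts with MRPL or MRPS and a digit. No measured value decided membership, but the set was chosen with earlier results of these data known. The pattern matched 71 of the 17538 genes in the table of joint fluid cells and the same 71 of the 17410 genes in the table of blood mononuclear cells (PBMC). Of these, 43 carry the MRPL symbol, given to proteins of the large subunit, and 28 the MRPS symbol, given to the small subunit. All 71 had a mean normalized read count of at least 10 in both tables and were tested. MRPL12 was not analysed here.

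The mitochondrial ribosome translates the few messages of the mitochondrial genome, which code for membrane-embedded subunits of the respiratory chain. Its proteins are coded in the nucleus, made by cytosolic ribosomes and imported, whereas its ribosomal RNAs are transcribed inside the organelle. Some members have a counterpart in the bacterial ribosome and others exist only in mitochondria. In mouse cytotoxic T cells, mitochondrial translation is known to be needed for sustained killing.

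RNA was sequenced from the cells of synovial (joint) fluid and from PBMC of horses with osteoarthritis (OA), a degenerative joint disease that was naturally occurring here, and of healthy horses. Horses were classed by lameness, radiographs and the response to analgesia of the affected joint; fluid was treated with hyaluronidase before the cells were spun down, and messages were enriched with oligo(dT) beads. The libraries formed 4 groups: fluid of OA horses (n = 5), fluid of healthy horses (n = 11), PBMC of OA horses (n = 6) and PBMC of healthy horses (n = 9). All horses were labelled WT in genotype and all libraries as mixed mononuclear cells; age, sex and batch were not given in the labels. Within a tissue each library came from a different horse, named OA_ or ORC_ (healthy) with a number, and 13 horses, 5 with OA and 8 healthy, gave both samples. Values are read counts that the authors normalized within each tissue, so no level is compared between fluid and PBMC. They are not divided by gene length, so no level is compared between genes.

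Fluid libraries held 25.9 to 36.3 megareads and PBMC libraries 23.9 to 34.8 megareads. PBMC libraries were deeper in OA, at 33.5 ± 1.14 megareads (SD, n = 6), against 27.55 ± 2.31 megareads in healthy PBMC (SD, n = 9), and an exact permutation test, two-sided, gave p = 0.0003996. The cell types marked in the libraries also differed. All 8 T cell markers fell in OA fluid, and their mean log2 level lay between 9.62 and 11.7 in OA fluid and between 11.8 and 13.7 in healthy fluid. Messages of fibroblasts, which are no mononuclear blood cells, were present in fluid. COL1A1, a chain of type I collagen, averaged 99795 in OA fluid and 9665 in healthy fluid, a difference that was not called. It was 0 in every OA PBMC library and at most 10.6 in healthy PBMC. The mean log2 level of the 7 fibroblast markers reached 11.6 to 13.9 in 4 OA fluids and 5.94 in the fluid of OA_9570, against 5.33 to 11.2 in healthy fluid. Of the other marker genes tested in fluid, 1 of 5 for B cells and 1 of 7 for proliferation fell, 1 of 6 for monocytes and 2 of 7 for fibroblasts rose, and none of 3 for neutrophils or 2 for platelets was called. In PBMC 1 of 5 B cell and 6 of 7 proliferation markers fell, 2 of 6 monocyte and 1 of 4 neutrophil markers rose, and none of 8 T cell, 2 platelet, 2 erythroid or 1 fibroblast marker was called. In these bulk samples fewer cells of a type and less RNA per cell cannot be told apart.

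In OA fluid, 15 of the 43 large subunit genes rose relative to healthy fluid and none fell (limma, Benjamini-Hochberg adjusted p below 0.05 over the 13885 genes tested). Of all genes tested, 14.4% rose and 13.6% fell. The change was positive in 36 of the 43, and their median log2 change was 0.41, against 0.08 over all genes tested. A change is the OA mean minus the healthy mean of log2(value + 1), given with its standard error (SE); changes ranged among the large subunit genes from -0.54 to 1.45. The 6 large subunit genes of smallest p were MRPL27, MRPL24, MRPL17, MRPL40, MRPL33 and MRPL14.

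MRPL27, whose bacterial counterpart reaches the peptidyl transferase centre, had 809, 569, 608, 911 and 567 normalized reads in the fluids of OA_1038, OA_2615, OA_3850, OA_9350 and OA_9570. In the 11 healthy fluids its lowest, median and highest values were 164, 249 and 465.8. Every OA fluid thus lay above every healthy fluid, and the log2 change was 1.31 (SE 0.26, limma adjusted p = 0.00227). The gene lies on chromosome 11 from 26139100 to 26141619 in the horse build EquCab3.0, as the PBMC table gives it. MRPL24, the counterpart of a bacterial protein that starts assembly of the large subunit, lies on chromosome 5 from 38170035 to 38171757. It had 745, 929.8, 863, 1410.2 and 922 reads in the same 5 OA fluids and a lowest, median and highest value of 189.9, 401 and 645 in healthy fluids. Its groups did not overlap either, and OA_9350 was far above the other OA fluids (change 1.35, SE 0.27, limma adjusted p = 0.00247). MRPL14 (chromosome 20, 43911539 to 43914248), another protein with a bacterial counterpart, had 671, 560.4, 699, 1073 and 725 reads in OA fluids and 97.9, 340.0 and 507 as lowest, median and highest value in healthy fluids, again with no overlap. Its change of 1.45 (SE 0.34, limma adjusted p = 0.00574) was the highest of the 43. These 3 genes, together with MRPS11 of the small subunit, were the 4 members for which every OA fluid exceeded every healthy fluid, as did 1.57% of all genes tested.

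The other 3 of these 6 genes overlapped between groups. MRPL17 had 1819.7, 1235, 1435, 2259 and 1211 reads in OA fluids, and the lowest, median and highest healthy fluids had 394, 583 and 1244, so that the highest healthy fluid lay just above the lowest OA fluids (change 1.26, SE 0.26, limma adjusted p = 0.00279). MRPL40, a protein that exists only in mitochondrial ribosomes, averaged 943 ± 273 reads in OA fluid (SD, n = 5) and 503 ± 100.8 in healthy fluid (SD, n = 11), a change of 0.88. MRPL33, with a bacterial counterpart, averaged 756 ± 245 in OA fluid and 352 ± 96.8 in healthy fluid, a change of 1.09. Above the highest healthy fluid lay 4 OA fluids for MRPL40 and 3 for MRPL33 (limma adjusted p = 0.00483 and 0.00542). The other 9 called genes were MRPL51 (1.30), MRPL55 (0.90), MRPL57 (0.80), MRPL13 (0.76), MRPL45 (0.72), MRPL10 (0.64), MRPL37 (0.51), MRPL16 (0.49) and MRPL38 (0.44), with the log2 change in parentheses. MRPL45 is known for holding the ribosome at the inner membrane, and MRPL10 is part of the stalk base to which translation factors bind.

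The most negative changes of the large subunit were -0.54 for MRPL46 (SE 0.24, limma adjusted p = 0.0913) and -0.23 for MRPL28 (SE 0.18, adjusted p = 0.352), neither past the threshold. MRPL46 had 631, 388, 419, 449 and 170.2 reads in the OA fluids and 389.6, 574 and 707 as lowest, median and highest healthy value. OA_9570 lay far below every healthy fluid, OA_2615 just below the lowest healthy fluid, and OA_1038 near the top of the healthy range. Single horses moved this value: without OA_1038 the change was -0.73 with a limma adjusted p of 0.0357, and without OA_9570 it was -0.26 with 0.313.

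In the small subunit, 11 of 28 genes rose in OA fluid and none fell, beside the 14.4% of all genes that rose. The change was positive in 24 of the 28, their median was 0.49, and they ranged from -0.55 to 1.5. MRPS11, whose bacterial counterpart sits on the platform of the small subunit, had the smallest p of all 71 members. It had 956, 799, 995, 1110.2 and 815 reads in the fluids of OA_1038, OA_2615, OA_3850, OA_9350 and OA_9570, against a lowest, median and highest value of 371, 435 and 714 in healthy fluids. It lies on chromosome 1 from 95585508 to 95596815. No OA fluid overlapped the healthy range (change 0.97, SE 0.18, limma adjusted p = 0.00166).

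MRPS21 (chromosome 5, 43398130 to 43408980), which has a bacterial counterpart, had the highest change of the 71 members, 1.5 (SE 0.33, limma adjusted p = 0.00401). Its values were 1417, 709.9, 571, 1025 and 390.4 in the OA fluids and 159.8, 245 and 486 as lowest, median and highest in healthy fluids, so the fluid of OA_9570 lay inside the healthy range and the other 4 above it. MRPS15, with a counterpart in the bacterial small subunit, averaged 1819 ± 567 in OA fluid and 944 ± 246 in healthy fluid, a change of 0.94. MRPS7, the counterpart of a bacterial protein that starts assembly of the head of the small subunit, averaged 697 ± 218 in OA fluid and 302 ± 134 in healthy fluid, a change of 1.27. MRPS27, a protein of pentatricopeptide repeats that exists only in mitochondrial ribosomes, averaged 846 ± 89.5 in OA fluid and 498 ± 161 in healthy fluid, a change of 0.83 (SD, n = 5 and n = 11 for each). The changes of these 3 genes passed the threshold (limma adjusted p = 0.00369, 0.00775 and 0.015), and healthy values reached into the OA range in each. MRPS25 (0.87), MRPS35 (0.71), MRPS33 (0.69) and MRPS22 (0.59), which also lack a bacterial counterpart, rose too.

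The 3 forms of MRPS18, which share an ancestor with 1 bacterial protein and occupy different places in the ribosome, were looked at one by one. MRPS18A, which structures place in the large subunit despite its symbol, had 1981, 1145, 706, 1116 and 900.1 reads in OA fluids and 276, 433 and 842 as lowest, median and highest in healthy fluids, a change of 1.23 (SE 0.27, limma adjusted p = 0.00468). OA_1038 was highest and OA_3850 lay within the healthy range. MRPS18B rose by 0.46 (SE 0.16, adjusted p = 0.0438), and MRPS18C had a change of 0.19 that did not pass (SE 0.30, adjusted p = 0.656). The differences between the forms were not tested. The log2 difference was 0.20 for MRPS30, also a large subunit protein in structures (adjusted p = 0.394), and 0.53 for MRPS36, known as a subunit of the alpha-ketoglutarate dehydrogenase complex rather than of the ribosome (adjusted p = 0.0977), neither past the threshold. With MRPS18A and MRPS30 counted as large subunit genes and MRPS36 left out, 16 of 45 large and 10 of 25 small subunit genes rose. The small subunit genes of most negative change were MRPS26 (-0.55, adjusted p = 0.0978) and MRPS5 (-0.40, adjusted p = 0.117), neither past the threshold.

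**Figure D1:**
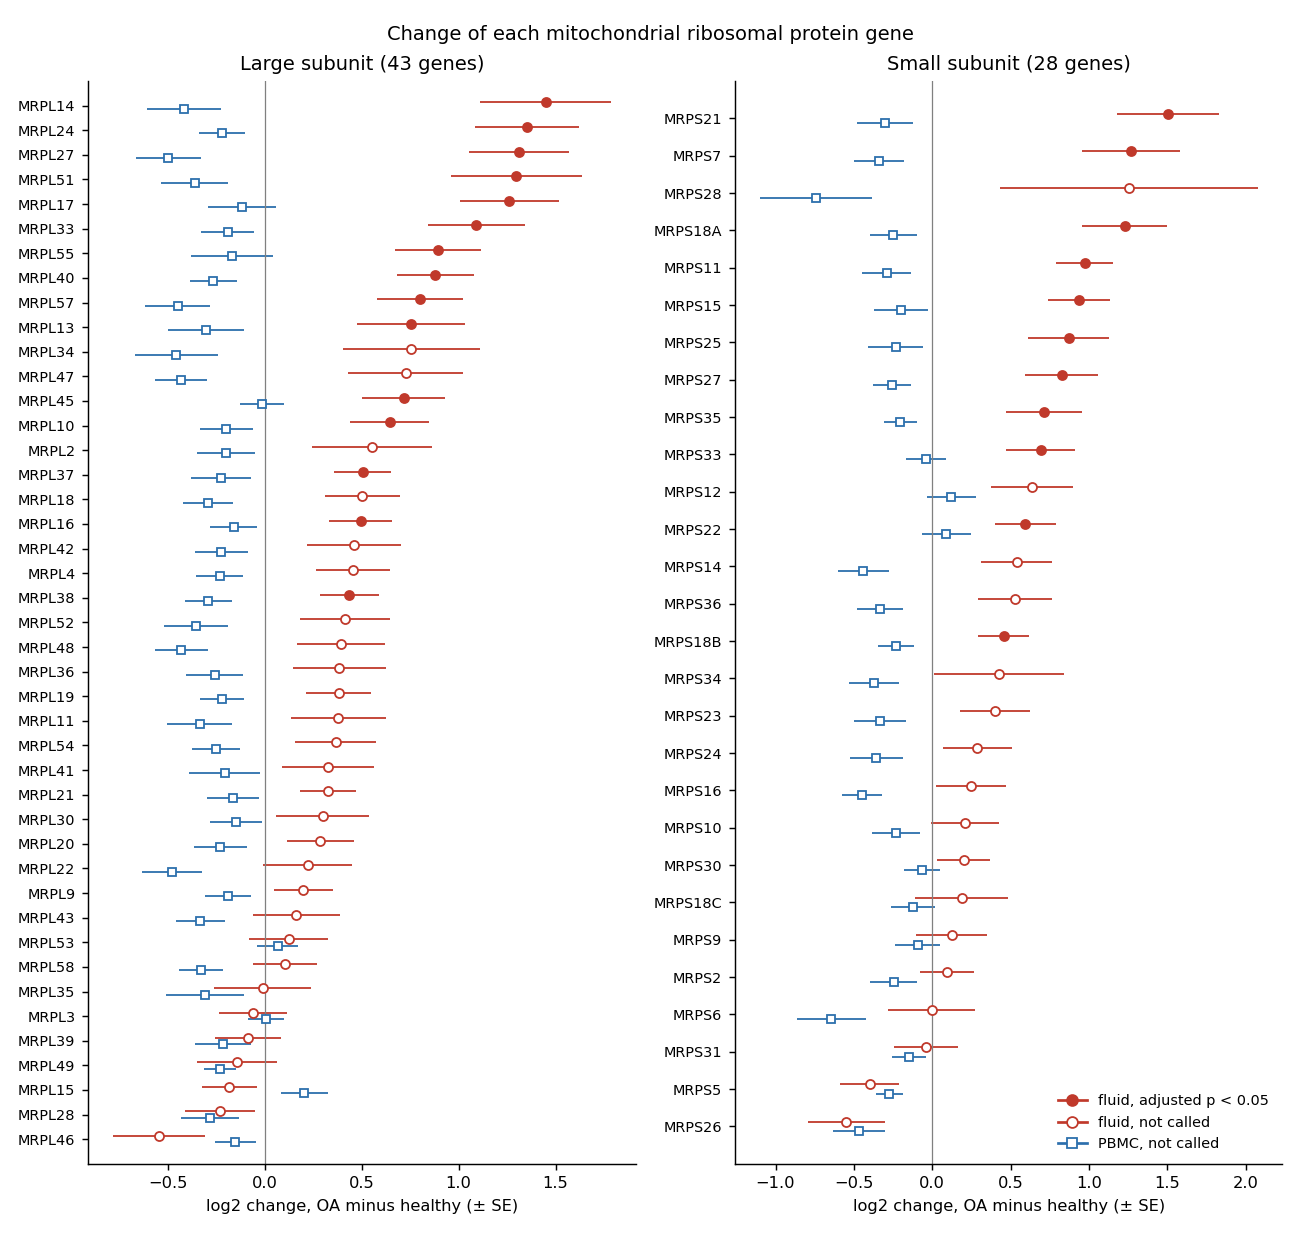
Log2 change, OA minus healthy (x axis, with SE bars), of each of the 43 large subunit genes (left) and 28 small subunit genes (right), in fluid (circles, filled where the limma adjusted p is below 0.05) and in PBMC (squares). In fluid 15 large and 11 small subunit genes were called, all of them higher, whereas in PBMC none was called and 66 of the 71 changes were negative.

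The members can also be split by whether the bacterial ribosome has a counterpart. Of the large subunit genes, 9 of 26 with a counterpart rose (median change 0.48) and 6 of 17 without one (0.39). Of the small subunit genes, 6 of 17 with a counterpart rose (median 0.46) and 5 of 11 without one (0.53). In all, 26 of the 71 members rose. The other 45 had changes between -0.55 and 1.25. The upper end was MRPS28, a low gene whose change had an SE of 0.82. It had 66.9 ± 20.1 reads in OA fluid and 39 ± 25.3 in healthy fluid, where ORC_197 had 0.

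**Figure D2:**
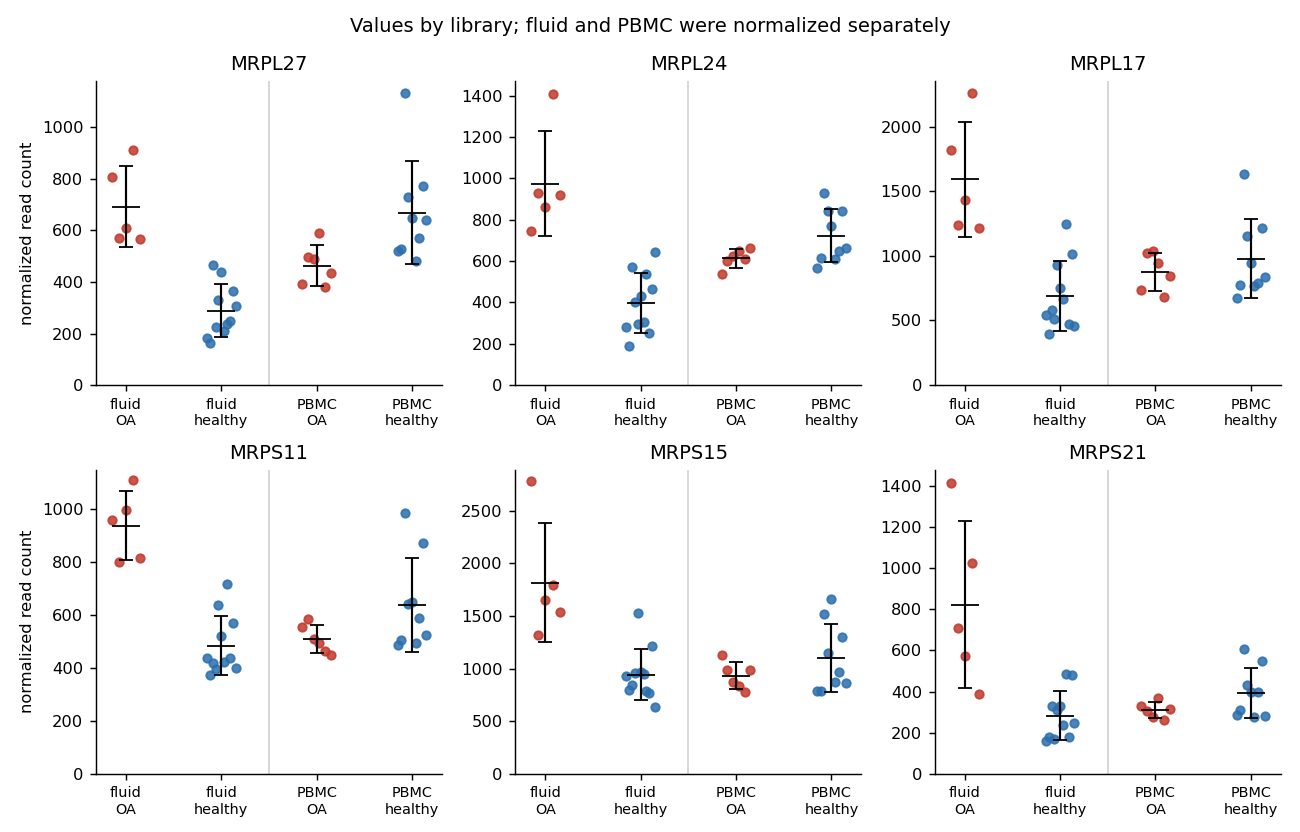
Normalized read counts per library (y axis, linear) of the 3 genes of smallest p in fluid from each subunit, with mean and SD; OA stands left of healthy within fluid (n = 5 and 11) and within PBMC (n = 6 and 9). The OA fluids of MRPL27, MRPL24 and MRPS11 lie above all healthy fluids, and in PBMC the OA means of all 6 genes lie below the healthy means.

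Across libraries, the rise was shared by the OA fluids but not uniform among healthy ones. OA fluids had 38, 31, 35, 38 and 30 of the 43 large subunit genes above the healthy median (OA_1038, OA_2615, OA_3850, OA_9350 and OA_9570), and 22, 22, 22, 25 and 21 of the 28 small subunit genes. Healthy fluids ran from 4 of 43 in ORC_192 and ORC_205 to 37 in ORC_198 and 33 in ORC_208, so that 2 healthy fluids reached the OA range in this count. The median log2 level over the large subunit genes was 9.84 ± 0.20 in OA fluid (SD, n = 5) and 9.31 ± 0.22 in healthy fluid (SD, n = 11), and 4 of 5 OA fluids lay above the highest healthy one. Over the small subunit genes it was 9.82 ± 0.24 in OA fluid and 9.26 ± 0.22 in healthy fluid, again with 4 of 5 OA fluids above. The median over all genes tested was 9.38 ± 0.11 in OA fluid and 9.30 ± 0.02 in healthy fluid.

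Between OA and healthy fluid, the T cell marker mean differed in the opposite direction, with all 5 OA fluids below the lowest healthy fluid. A fit with the T cell marker mean as a covariate was run, but that mean did not overlap between OA and healthy fluids. The fit therefore cannot tell disease apart from T cell content, and the part of T cells in the rise of the ribosomal genes was not tested. In that fit, chosen after the data were seen, no gene of either subunit and no other gene was called, while the median changes were 0.68 for the large and 0.75 for the small subunit. The fluid of OA_9570, with a fibroblast level of 5.94 inside the healthy range, had a large subunit level of 9.74, above every healthy fluid, and a small subunit level of 9.54, the lowest of the OA fluids and inside the healthy range. The part of fibroblast messages in the rise was not tested. Without OA_9570, the OA fluid of lowest fibroblast level, and ORC_202, the healthy fluid of lowest T cell level, 16 large and 11 small subunit genes rose. The share of all genes that rose in that fit is not given here, so these counts say nothing particular of the members.

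**Figure D3:**
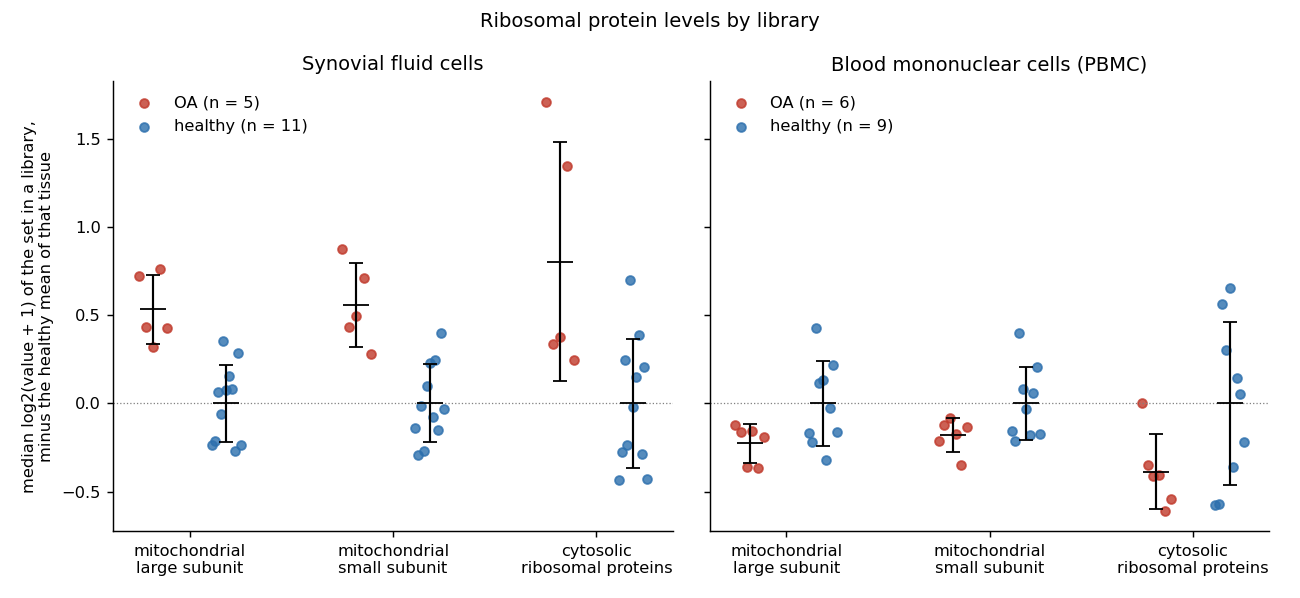
Median log2(value + 1) over the large subunit, small subunit and cytosolic ribosomal protein genes in each library, minus the healthy mean of that tissue (y axis), with OA left of healthy; bars are mean and SD. In fluid 4 of 5 OA libraries lie above the highest healthy one for each mitochondrial subunit and 2 of 5 for the cytosolic set; in PBMC no OA library lies above the highest healthy one.

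The proteins of the cytosolic ribosome, which makes nearly all cellular proteins, were set beside the mitochondrial ones. The symbol pattern RPL or RPS and a digit matched 79 fluid genes, of which 75 were tested, 40 rose and 2 fell, with a median change of 0.75. The pattern also takes in S6 kinases and RPS19BP1; without these, 38 of 66 rose and none fell (median 0.79). RPL22L1, a paralogue of RPL22, averaged 2291 ± 1108 reads in OA fluid (SD, n = 5) and 724 ± 198.4 in healthy fluid (SD, n = 11), a change of 1.55 (SE 0.27, limma adjusted p = 0.00122), and RPL7 of the large subunit changed by 1.14. Cytosolic ribosomal protein genes have many processed copies, and how reads of near-identical copies were counted is not given in the sources used here. Those that fell were the kinases RPS6KA5 (-1.21) and RPS6KB1 (-0.78), which are not parts of the ribosome.

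The median log2 level of the cytosolic genes ran from 14.3 in OA_9570 to 15.8 in OA_1038 among OA fluids, with a mean of 14.84 ± 0.68 in OA fluid and 14.04 ± 0.37 in healthy fluid, and 2 of 5 OA fluids lay above the highest healthy one. Within a library, the median over all 71 members minus the cytosolic median was -5.02 ± 0.49 in OA fluid and -4.76 ± 0.24 in healthy fluid, on the log2 scale. Whether the change of the mitochondrial genes differs from that of the cytosolic genes was not tested.

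**Figure D4:**
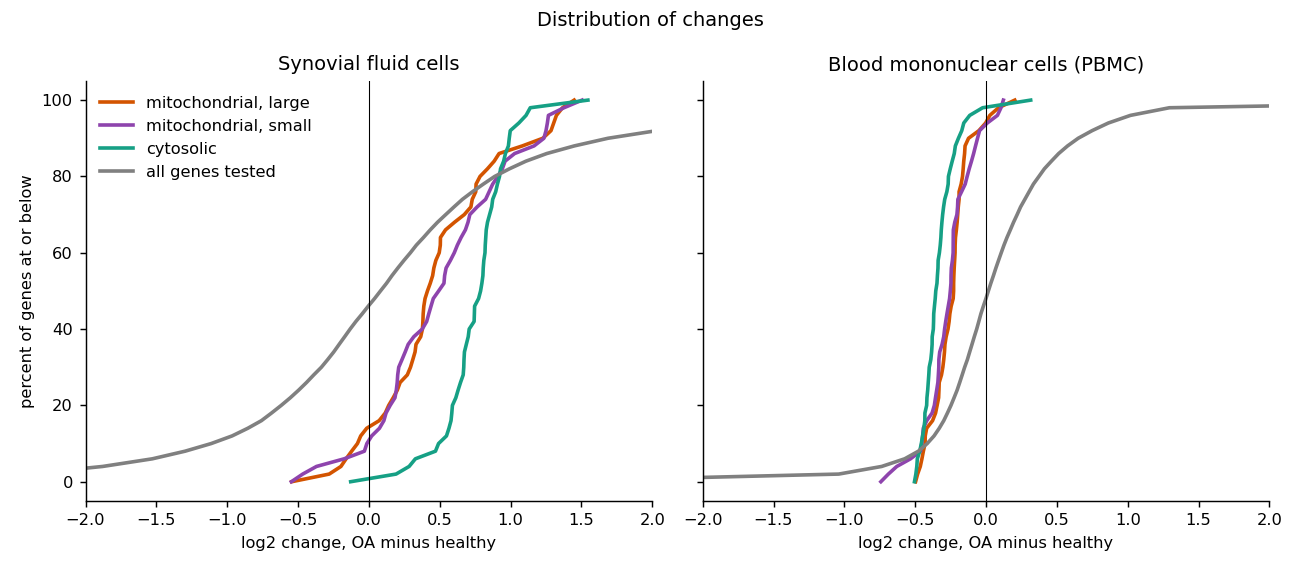
Percent of genes (y axis) with a log2 change, OA minus healthy, at or below the value on the x axis, for the large subunit, small subunit, cytosolic ribosomal protein genes and all genes tested. In fluid the medians are 0.41, 0.49, 0.79 and 0.08, and in PBMC -0.23, -0.25, -0.35 and 0.02.

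Lists of other genes of mitochondrial protein supply and gene expression were counted beside the members. Of the mitoribosomal proteins with other symbols, 2 of 4 tested rose: GADD45GIP1, a large subunit protein also known as CRIF1 that helps insert new proteins into the membrane, averaged 1827 ± 463 reads in OA fluid and 668 ± 206 in healthy fluid (change 1.47, SE 0.22, limma adjusted p = 0.000565), and CHCHD1 of the small subunit changed by 1.2. DAP3, a GTP-binding protein of the small subunit, had a log2 difference of -0.32 (adjusted p = 0.0726). It was called lower with equal totals, TMM scaling, edgeR, DESeq2 and weights per library, and without ORC_202.

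Of 36 nuclear-coded subunits of the respiratory chain, the complexes that mitochondrial translation supplies, 17 rose and none fell, and all 36 changes were positive (median 0.58). NDUFB10 of complex I changed by 1.19 (SE 0.21, limma adjusted p = 0.00128) and UQCRC2 of complex III by 0.73. Of 19 genes for import, chaperones and proteases, 10 rose and none fell (median 0.57), among them TOMM22, a receptor of the outer membrane import pore (1.13, limma adjusted p = 0.000949), and the inner membrane scaffold PHB1 (1.08).

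The remaining lists are small, and their counts stand beside the 14.4% of all genes that rose and the 13.6% that fell; shares near these say nothing particular of a list. Of 28 genes for ribosome assembly and rRNA modification, 2 rose and 1 fell (median 0.10): the GTPase GTPBP6 changed by 0.62 and the helicase DDX28 by -1.39. Of 14 translation factors, 1 rose and 4 fell (median -0.08), including the initiation factor MTIF2 (-0.78, limma adjusted p = 0.00651) and GFM2, which helps recycle the ribosome (-0.68). Of 17 genes for charging mitochondrial tRNAs, 1 rose, the tryptophan enzyme WARS2 (0.89), and 3 fell, among them the alanine enzyme AARS2 (-1.23), with a median of -0.14. Of 11 genes for mitochondrial DNA transcription and upkeep, the single-strand binding protein SSBP1 rose (0.60) and MTERF2 fell (-0.68). Of 14 genes for RNA processing, none rose, and FASTKD5 (-0.91) and the poly(A) polymerase MTPAP (-0.59) fell. Of 10 regulators of mitochondrial biogenesis, none rose and NRF1, a transcription factor that drives many of these genes, fell (-0.73, limma adjusted p = 0.0141), as did GABPB1 (-0.60).

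**Figure D5:**
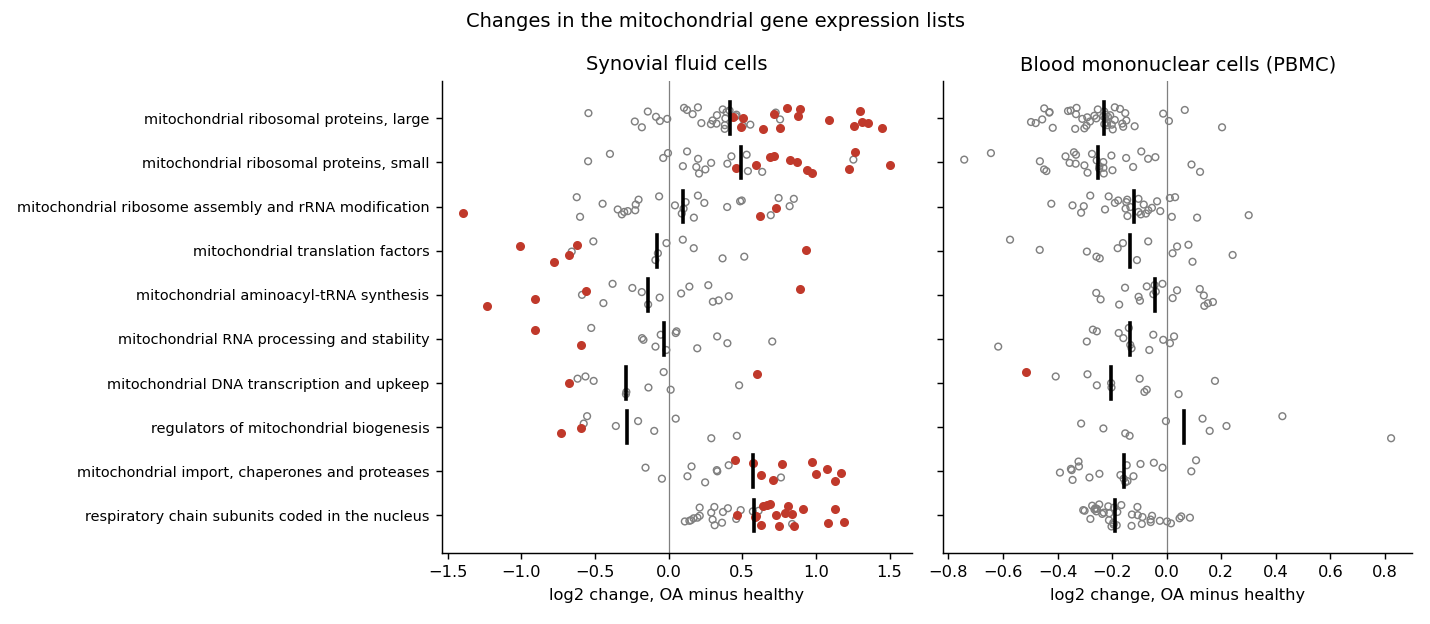
Log2 change, OA minus healthy (x axis), of each tested gene of the mitochondrial gene expression lists in fluid (left) and PBMC (right); filled points are called at a limma adjusted p below 0.05, open points are not, and black bars are medians. The large and small subunit genes, import genes and respiratory chain genes have medians between 0.41 and 0.58 in fluid, and the other 6 lists drawn between -0.29 and 0.10; mitoribosomal proteins with other symbols are not drawn.

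In PBMC, no gene of either subunit was called by limma among 13072 genes tested, of which 3.2% rose and 2.2% fell. The changes were nevertheless mostly negative, in 40 of 43 large subunit genes (median -0.23, range -0.50 to 0.20) and 26 of 28 small subunit genes (median -0.25, range -0.74 to 0.12), beside a median of 0.02 over all genes tested. At an unadjusted p below 0.05, 14 large and 7 small subunit genes were lower and none higher, beside 11.2% of all genes that were lower at that level. On the recovered reads, edgeR called none of the large and 1 of the small subunit genes lower, and DESeq2 called 6 and 3. The shares of all genes called in these fits are not given here, so the counts say nothing particular of the members.

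MRPS16 (chromosome 1, 61493949 to 61495575), a small subunit protein with a bacterial counterpart, had the smallest p in PBMC. Its lowest, median and highest values were 538, 583 and 625.1 in OA PBMC and 633, 760.2 and 1082 in healthy PBMC, with every OA library below every healthy one (change -0.45, SE 0.13, limma adjusted p = 0.0512). MRPL22 (chromosome 14, 22941507 to 22970211), whose bacterial counterpart lines the exit tunnel, did not overlap between groups either, at 254, 334 and 369 in OA PBMC and 374, 440.2 and 789 in healthy PBMC (change -0.48, SE 0.16, adjusted p = 0.0744). These were the 2 members for which every OA library lay below every healthy one, as it did for 0.436% of all genes tested. The other large subunit genes of small p were MRPL47 (-0.43, limma adjusted p = 0.0672), MRPL48 (-0.43), MRPL27 (-0.50), MRPL49 (-0.23) and MRPL58 (-0.33), the last a peptidyl-tRNA hydrolase that rescues stalled ribosomes. In the small subunit they were MRPS5 (-0.27, limma adjusted p = 0.0702), MRPS6 (-0.64), MRPS26 (-0.46), MRPS14 (-0.44) and MRPS34 (-0.37).

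Positive changes in PBMC were few and small. They were 0.20 for MRPL15, 0.07 for MRPL53, 0.01 for MRPL3, 0.09 for MRPS22 and 0.12 for MRPS12, the counterpart of a bacterial protein of the decoding site. The log2 difference in PBMC was -0.25 for MRPS18A, -0.23 for MRPS18B, -0.12 for MRPS18C, -0.07 for MRPS30, -0.33 for MRPS36 and -0.16 for DAP3, none past the threshold.

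The healthy PBMC libraries were far apart in these genes. ORC_197, ORC_200 and ORC_202 each had 38 and ORC_208 had 37 of the 43 large subunit genes above the healthy median, whereas ORC_188, ORC_192, ORC_205, ORC_207 and ORC_209 had 0 to 10. OA PBMC had 3 to 15. The median log2 level over the large subunit genes was 9.42 ± 0.11 in OA PBMC (SD, n = 6) and 9.65 ± 0.24 in healthy PBMC (SD, n = 9), and 2 of 6 OA libraries lay below the lowest healthy one. Over the small subunit genes it was 9.40 ± 0.10 in OA PBMC and 9.58 ± 0.21 in healthy PBMC. Monocyte markers were higher in all 6 OA PBMC libraries than in any healthy one (mean log2 level 12.86 ± 0.51 in OA and 11.81 ± 0.42 in healthy), 6 of 7 proliferation markers fell, and OA libraries were deeper. The parts of monocytes, proliferation and depth in the changes were not tested. With the monocyte marker mean as a covariate, chosen after the data were seen, the median changes were -0.26 for the large and -0.32 for the small subunit and no gene was called. That mean did not overlap between OA and healthy PBMC, so this fit cannot tell disease apart from monocyte content.

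Cytosolic ribosomal protein genes in PBMC were not called either, with a median change of -0.34 over the 75 tested and 15 lower at an unadjusted p below 0.05. RPS26 (-0.47), RPS27 (-0.50) and RPL7L1 (-0.36) had the smallest p, and the most positive changes were those of the kinases RPS6KA5 (0.37) and RPS6KA3 (0.32). Of the other mitochondrial lists, 1 gene was called in PBMC: MGME1, a nuclease of mitochondrial DNA upkeep, fell to 350.4 ± 40.5 reads in OA PBMC (SD, n = 6), against 503 ± 71.4 in healthy PBMC (SD, n = 9; change -0.52, limma adjusted p = 0.0252). The respiratory chain subunits had a median of -0.19 with none of 36 called, at an adjusted p below 0.05 or an unadjusted p below 0.05.

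The genes of smallest p in the other lists are given with their log2 change in PBMC and limma adjusted p, none past the threshold. Among mitoribosomal proteins with other symbols (median change -0.32, none of 4 called) these were GADD45GIP1 (-0.52, 0.173) and AURKAIP1 (-0.32, 0.213). Among translation factors (median -0.13, none of 14 called) they were PDF (-0.57, 0.076), which removes the formyl group from new proteins, and the release factor MTRF1L (-0.29, 0.109). Ribosome assembly genes had a median of -0.12, with none of 28 called and RPUSD3 (-0.42, 0.104) and NGRN (-0.28, 0.105) first, both known to stabilise the large ribosomal RNA. Genes for charging tRNAs had a median of -0.04, with none of 18 called, and HARS2 (-0.24, 0.208) and SARS2 (-0.26, 0.218) first. In mitochondrial DNA transcription and upkeep (median -0.20 over 11), the helicase TWNK (-0.41, 0.0588) followed MGME1. RNA processing genes had a median of -0.14, with none of 14 called, and FASTKD5 (-0.27, 0.163) and TRMT10C (-0.62, 0.222) first. Regulators of biogenesis had a median of 0.06, with none of 10 called, and PPARGC1B (0.82, 0.0608) and GABPB1 (-0.23, 0.155) first. Import genes had a median of -0.16, with none of 19 called and VDAC3 (-0.32, 0.0874) and GRPEL1 (-0.35, 0.101) first, and in the respiratory chain they were NDUFV2 (-0.28, 0.231) and UQCRB (-0.24, 0.241).

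The difference of the OA effect between the tissues, fluid minus PBMC, was tested directly in a fit over all 31 libraries. The fit had no term for the horse and took fluid and PBMC of the same animal as independent. Of 12733 genes tested, 10.3% had a higher OA effect in fluid and 11.9% a lower one (median difference -0.05). Among members, 21 of 43 large subunit genes (median 0.70) and 13 of 28 small subunit genes (median 0.72) had a higher OA effect in fluid and none a lower one.

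MRPL27 differed by 1.81 (SE 0.31, limma adjusted p = 0.000598), being 1.31 in fluid and -0.50 in PBMC. MRPL24 differed by 1.57 (SE 0.28, adjusted p = 0.000637). MRPS21 differed by 1.81 (SE 0.37, adjusted p = 0.00168) and MRPS11 by 1.26 (SE 0.26, adjusted p = 0.00158). The change was positive in fluid and negative in PBMC in 57 members, negative in both in 9, positive in both in 3 and negative in fluid but positive in PBMC in 2, MRPL3 and MRPL15. Among cytosolic pattern genes, 53 of 75 had a higher OA effect in fluid and 2 a lower one (median 1.10).

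The 71 genes lie on 25 chromosomes, with at most 7 on one. A single pair of members lies within 100 kb: MRPS11 ends at 95596815 on chromosome 1 and MRPL46 starts at 95597201, 385 bases on, as the PBMC table gives them for EquCab3.0. These neighbours held the smallest p of all members and the most negative change of the large subunit in fluid, 0.97 and -0.54. In PBMC their log2 differences were -0.29 and -0.15, neither past the threshold. Of the members, 20 overlap another gene of the table, and the strand used in counting is not given in the sources used here. Among the 26 that rose in fluid, 8 overlap another gene: MRPS27 overlaps MAP1B, which rose by 2.91, MRPL40 overlaps HIRA, which fell by 0.45, and the genes overlapping the other 6 were not called. Of the 51 members that overlap no gene, 18 rose, 12 of the large and 6 of the small subunit.

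Of the 26 genes that rose in fluid, 14 were called in each of the 16 fits that left out 1 horse, including all 12 named above by smallest p. MRPL13 and MRPS18B were called in 4 of the 16 and MRPL38 in 6. The count of small subunit genes fell to 6 without OA_1038 and to 7 without OA_2615 or OA_9350, and that of cytosolic pattern genes to 15 without OA_1038 and 17 without OA_9350. With libraries scaled to equal totals, the median of all fluid genes moved to -0.12, with 1302 genes higher and 2767 lower in place of 2006 and 1893. Under that scaling the median was 0.21 for the large and 0.29 for the small subunit, and 10 large and 6 small subunit genes rose while MRPL46, MRPS26 and MRPS5 fell.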

How the data were processed

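Cells of synovial fluid and PBMC of horses were profiled by RNA-seq. Each deposited value is a normalized signal, namely a gene's reads divided by a scaling factor of its library, which the authors set separately for fluid and PBMC. The submitters' processing notes name Partek, cutadapt, STAR 2.7.3, HTSeq, DESeq and the build EquCab3.0; neither their settings nor the strand used in counting is given in the sources used here. Whole reads were recovered by dividing each library's values by its smallest step, and 99.8% to 99.98% of values came out whole within 0.1; depths are sums of these reads.

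Groups came from the labels. Genes with a mean of at least 10 were tested with limma 3.58.1 (R 4.3.3; trend and robust) on log2(value + 1), which understates the change of low genes, with Benjamini-Hochberg adjustment over all genes of a table and a threshold of 0.05. The difference between tissues was fitted over all 31 libraries on genes passing the filter in both tables, with limma library weights by tissue. Alternatives used edgeR 4.0.16 and DESeq2 1.42.0 on the recovered reads, other pseudocounts, filters and scalings, weights per library and leaving out each horse within a tissue. For the difference, only the fluid library of each OA horse was left out. The fits with a T cell or monocyte marker covariate were chosen after the data were seen. The computation was tested on simulated data. The members and all gene lists were chosen with earlier results of these data known.

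Named in the text are, per tissue and subunit, the 6 members of smallest p and the 2 of largest change against the subunit's median, the 2 of smallest p per subunit in the difference, the MRPS18 forms, MRPS30, MRPS36 and DAP3, the 3 cytosolic genes of smallest p and 2 against their median, and the 2 of smallest p in each other mitochondrial list. Marker genes are given by counts and mean levels, apart from COL1A1. Other called members and list genes were named after their values were seen. Horse numbers in the sample titles pair fluid and PBMC of the same animal; over 12733 genes the paired deviations correlated at 0.123 to 0.391 (median 0.252) in all 13 horses. No libraries of a group were alike within sampling noise: the smallest chi-square per gene between any pair was 31.62. Each p-value within a tissue sets a difference against the spread between horses. The fit of the difference over all 31 libraries took the paired samples of a horse as independent.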

Additional observations from a re-analysis of the deposited data

Results flagged for a closer look

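In 108 groups of 4 to 10 libraries, the gap between an extreme library and its nearest neighbour was compared with the range of the group; chance marks about 1 in 20 such groups, and 10 were marked. In OA fluid the highest library stood apart for MRPL22 (736 normalized reads), MRPL24 (1410.2) and MRPS30 (1438). In OA PBMC the lowest library stood apart for MRPS18B (766) and MRPS18C (129), and the highest for MRPS22 (1426). In healthy PBMC the highest library stood apart for MRPL22 (789), MRPL27 (1132) and MRPL40 (963), and the lowest for MRPS5 (751).

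The OA effect was higher in fluid than in PBMC, by the test of the difference itself, for 21 large and 13 small subunit genes. Among those named in the text, the log2 difference in the large subunit was 1.87 for MRPL14, 1.81 for MRPL27, 1.57 for MRPL24, 1.38 for MRPL17, 1.28 for MRPL33, 1.16 for MRPL47, 1.15 for MRPL40 and 0.82 for MRPL48. Among genes with the small subunit symbol it was 1.81 for MRPS21, 1.61 for MRPS7, 1.47 for MRPS18A, 1.26 for MRPS11, 1.14 for MRPS15, 1.08 for MRPS27, 0.98 for MRPS14, 0.86 for MRPS36, 0.70 for MRPS16 and 0.69 for MRPS18B.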

How the results depend on the processing

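No median and no named gene changed sign with a call under any alternative run. In fluid, scaling to equal totals left 6 small subunit and 24 cytosolic pattern genes higher. The T cell covariate left 0 large, 0 small and 0 cytosolic genes called, with medians of 0.68, 0.75 and 1.25. That fit cannot tell disease apart from T cell content. In PBMC, 1 small subunit gene was lower with a pseudocount of 10, a mean of at least 50, equal totals, TMM scaling or edgeR, and 1 large subunit gene with equal totals. DESeq2 called 6 large, 3 small and 7 cytosolic genes lower there, and weights per library 3 large and 4 small. The shares of all genes called in these PBMC fits are not given here. In the difference, equal totals left 13 large subunit genes, and the all-gene median moved to -0.26. The causes were not tested beyond these values.

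Leaving out each horse in turn gave 10 to 17 large, 6 to 12 small and 15 to 53 cytosolic genes higher in fluid, with medians of 0.35 to 0.49, 0.39 to 0.55 and 0.53 to 0.89. In PBMC it gave 0 large, 0 to 3 small and 0 to 1 cytosolic genes lower, with medians of -0.27 to -0.19, -0.30 to -0.19 and -0.41 to -0.26. In the difference, only the fluid library of each OA horse was left out in turn, and all PBMC libraries were kept. These fits gave 14 to 21 large, 9 to 14 small and 22 to 58 cytosolic genes, with medians of 0.58 to 0.78, 0.60 to 0.80 and 0.88 to 1.21. With the replicate block, fitted on paired samples of the same horse, 27 large, 15 small and 64 cytosolic genes were called (medians 0.74, 0.81 and 1.21). The shares of all genes called in the fits of this paragraph are not given here, so their counts say nothing particular of the members. The 5 OA fluids limit the fluid results, and disease cannot be told apart from age, sex or batch, which the labels do not give.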
